A study of Danio rerio with 6 samples.

Results

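The 9 genes described here include *mdm2* and *mdm4*, which encode the negative regulators of p53. The others, *cdkn1a*, *ccng1*, *bbc3*, *pmaip1*, *fas*, *sesn3* and *phlda3*, are taken here as p53 targets in the response to DNA damage. The 9 genes are defined by gene name and not by a threshold on their values. Earlier results of these data were known when they were chosen. They make up 9 of the 19260 genes that the arrays measured through a probe set with a single gene symbol. Each gene was represented by its only such probe set, except *fas*, which had 2 and was represented by the brighter one. RNA came from whole zebrafish embryos at 5 days post-fertilization (5 dpf) and was measured on 3 arrays of *tdp1-/-* embryos and 3 arrays of *tdp1WT* embryos, from biologically independent experiments numbered 1 to 3 in each genotype. Arrays with the same number are read here as 1 experiment, which the labels do not state. Embryos of both genotypes were kept for 16 hours before harvest in 500 nM camptothecin (CPT), a poison that traps topoisomerase 1 (Top1) on DNA. Tdp1 is an enzyme that can remove trapped Top1 from the ends of broken DNA. The *tdp1-/-* fish carry frameshift deletions made with CRISPR-Cas9 in the first coding exon of *tdp1*. They are SH475/SH476 or SH475/SH475 animals of a line with a mixed London wild-type and nacre background. The question for these genes is whether loss of Tdp1 altered the transcripts of the p53 response while Top1 was poisoned. All 6 arrays were from CPT-treated embryos, so the response to CPT itself was not measured. Whole-embryo RNA pools every cell type, and fewer cells of a type cannot be told apart from less RNA per cell.

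p53 is a transcription factor that is kept at a low level in unstressed cells because the Mdm2 ubiquitin ligase marks it for degradation. DNA damage stabilizes p53, which then switches on genes that stop the cell cycle, genes that commit the cell to apoptosis and the *mdm2* gene itself, so that Mdm2 limits the response it is part of. In zebrafish embryos the same circuit acts after irradiation and genotoxic drugs, and DNA breaks left by trapped Top1 are among the lesions that activate it in vertebrate cells.

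Values are log2 expression after robust multi-array averaging (RMA), so a difference of 1 is a doubling, and differences are given as *tdp1-/-* minus *tdp1WT*. A gene was called when its limma p, before adjustment, was under 0.05 and the fold change was over 1.2, the study's threshold. By this rule 3.57% of all 75212 rows of the table were called, and no row passed an adjusted p of 0.05, the lowest being 0.0608. The medians of the arrays lay between 4.66 and 4.87. The 12 measured markers of neurons, glia, muscle, skin, pancreas, lens and blood had genotype means from 6.69 to 11.79. The *tdp1* transcript, the check of the labels, was 5.18, 5.17 and 5.24 in *tdp1-/-* embryos, against 5.59, 5.34 and 5.85 in *tdp1WT* embryos, without overlap. Its difference of -0.40 ± 0.17 (SE, n = 3 arrays each) was called at a limma p of 0.0452 (adjusted p = 0.9999, exact permutation p = 0.1), and leaving out single arrays moved it between -0.27 and -0.53, with the call kept in 1 of 6 such fits, that without *tdp1WT* replicate 2.

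None of the 9 genes was called. The share called was 0 of 9, against 1.89% of the 19260 genes, and with the experiment number as a block it was again 0 of 9, against 4.04% of the genes. The genotypes were without overlap for 0 of the 9 genes, against 7.72% of the 19260 genes. In a list of 9, a count of 0 is close to each of these shares. In every case the difference between the genotype means was smaller than the range of the 3 arrays within at least 1 genotype. For *mdm2* the margin was small, 0.0815 against ranges of 0.0876 in *tdp1-/-* and 0.0823 in *tdp1WT* embryos. The share of all genes with this property was not computed. Differences ran from -0.23 (*fas*) to 0.25 (*pmaip1*), with 6 above 0, 3 below 0 and a median of 0.06, beside a median of -0.005 over the 19260 genes. The adjusted p was 0.9999 for each gene. Exact permutation tests over the arrays gave two-sided p from 0.2 to 1, and 3 arrays against 3 cannot give less than 0.1.

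**Figure D1:**
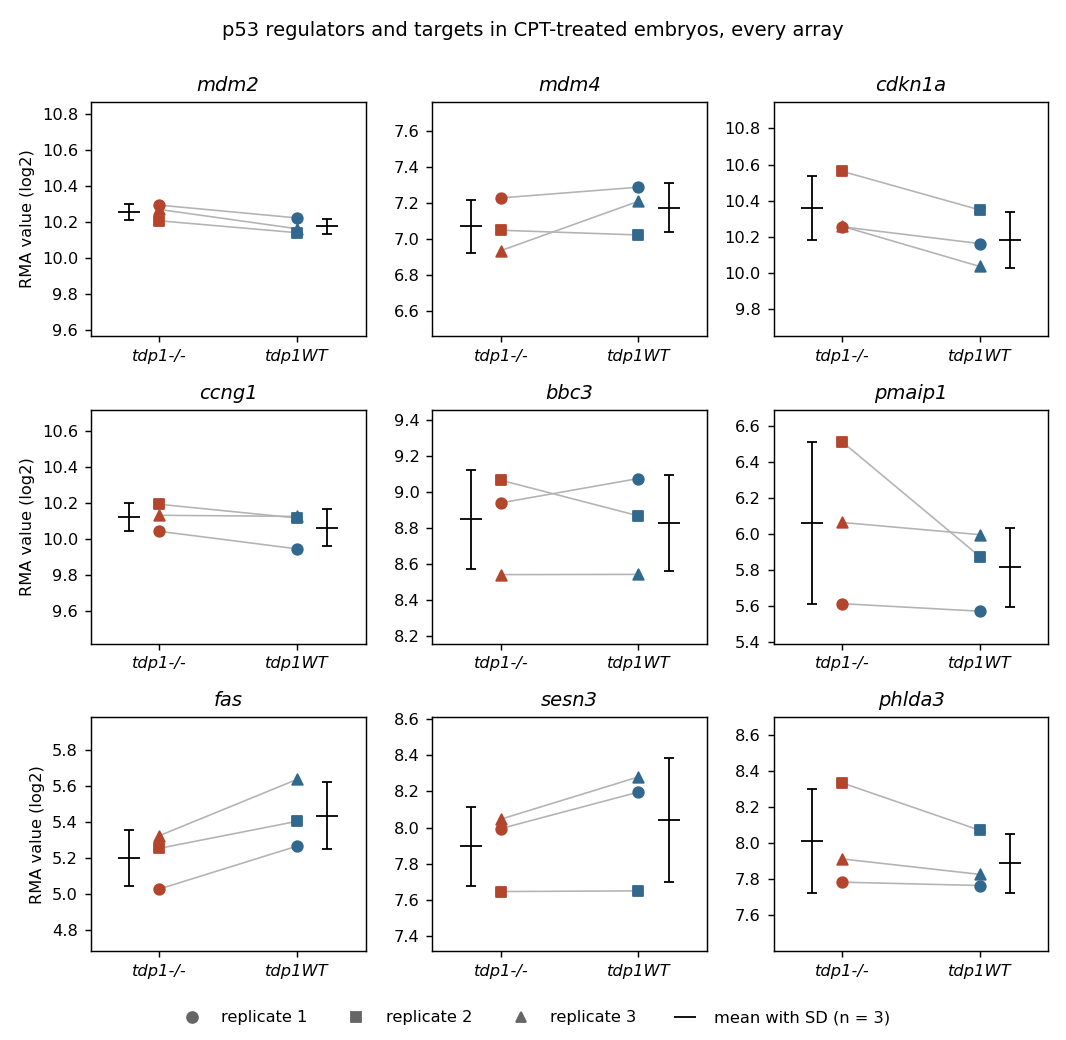
Log2 RMA values of the 9 genes on every array, *tdp1-/-* left and *tdp1WT* right in each panel, with lines joining same-numbered experiments and bars for the mean and SD (n = 3 arrays). All panels span the same number of log2 units on different offsets; *mdm2* stayed between 10.14 and 10.29, whereas *pmaip1* ran from 5.57 to 6.51.

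The feedback regulators differed little. *mdm2* had log2 values of 10.29, 10.21 and 10.27 in *tdp1-/-* embryos, against 10.22, 10.14 and 10.16 in *tdp1WT* embryos. The *tdp1-/-* arrays were slightly higher, but *tdp1-/-* replicate 2 lay below *tdp1WT* replicate 1, so the groups overlapped. The means were 10.26 ± 0.045 and 10.18 ± 0.043 (SD, n = 3 each), with a difference of 0.08 (95% confidence interval -0.22 to 0.38, limma p = 0.544, exact permutation p = 0.2). As *mdm2* is itself induced by p53, it is one of the most widely used readouts of p53 activity, and its whole range over the 6 arrays was 0.15 on the log2 scale, the smallest of the 9 genes.

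*mdm4* encodes the Mdm2 relative that binds p53 and holds back its activity without being a strong ubiquitin ligase of its own. Its log2 values were 7.23, 7.05 and 6.94 in *tdp1-/-* embryos, against 7.29, 7.02 and 7.21 in *tdp1WT* embryos. The lowest array was *tdp1-/-* replicate 3, and the other 5 were spread across both genotypes. The difference was -0.10 (95% confidence interval -0.46 to 0.25, limma p = 0.520, exact permutation p = 0.5), the opposite sign to *mdm2*.

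*cdkn1a* encodes p21, the inhibitor of cyclin-dependent kinases through which p53 stops cells before S phase. It read 10.25, 10.56 and 10.26 in *tdp1-/-* embryos, against 10.16, 10.35 and 10.03 in *tdp1WT* embryos. Each *tdp1-/-* array was above the *tdp1WT* array of the same experiment, yet *tdp1WT* replicate 2 lay above *tdp1-/-* replicates 1 and 3. The means of 10.36 ± 0.18 and 10.18 ± 0.16 (SD, n = 3 each) differed by 0.18, a 1.13-fold difference (95% confidence interval -0.20 to 0.55 on the log2 scale, limma p = 0.305, exact permutation p = 0.3). With the block the interval narrowed to -0.12 to 0.47.

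*ccng1* encodes cyclin G1, a p53-induced cyclin that in mammals recruits a phosphatase to Mdm2. It read 10.04, 10.19 and 10.13 in *tdp1-/-* embryos, against 9.95, 10.12 and 10.13 in *tdp1WT* embryos. The highest and lowest of the 6 arrays differed by 0.25, and replicate 1 was the lowest array in both genotypes. The difference was 0.06 (95% confidence interval -0.26 to 0.38, limma p = 0.674, exact permutation p = 0.5).

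*bbc3* encodes Puma, the BH3-only protein that carries much of the p53-dependent cell death in irradiated zebrafish embryos. It read 8.94, 9.07 and 8.54 in *tdp1-/-* embryos, against 9.08, 8.87 and 8.54 in *tdp1WT* embryos. Replicate 3 was the low array in both genotypes, and replicates 1 and 2 changed places between them. The means were nearly equal, 8.85 ± 0.27 and 8.83 ± 0.27 (SD, n = 3 each), with a difference of 0.02 (95% confidence interval -0.46 to 0.50, limma p = 0.924, exact permutation p = 1) whose sign turned to -0.001 when arrays were centred on their medians and to -0.07 with array weights.

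*pmaip1* encodes Noxa, a further BH3-only protein, which neutralizes Mcl1. Its log2 values were 5.61, 6.51 and 6.07 in *tdp1-/-* embryos, against 5.57, 5.88 and 5.998 in *tdp1WT* embryos. One array stood apart upward, *tdp1-/-* replicate 2, and the other 5 arrays of the 2 genotypes were mixed. The means of 6.06 ± 0.45 and 5.82 ± 0.22 (SD, n = 3 each) differed by 0.25, or 1.19-fold, with a 95% confidence interval from -0.33 to 0.82 (limma p = 0.344, exact permutation p = 0.4). Without *tdp1-/-* replicate 2 the difference was 0.02, and without *tdp1-/-* replicate 1 it was 0.47, neither of them called.

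*fas* encodes the death receptor at the cell surface that recruits Fadd and caspase-8. In the brighter of its probe sets it read 5.03, 5.26 and 5.33 in *tdp1-/-* embryos, against 5.27, 5.41 and 5.64 in *tdp1WT* embryos. Every *tdp1-/-* array was below the *tdp1WT* array of its experiment, although *tdp1-/-* replicate 3 was above *tdp1WT* replicate 1. The difference of -0.23, a 1.18-fold lower mean, was the lowest of the 9 and had the smallest limma p of them, 0.191 (95% confidence interval -0.61 to 0.15, exact permutation p = 0.2). With the block its interval was -0.53 to 0.06. The dimmer probe set read 3.67, 4.26 and 3.76 in *tdp1-/-* embryos, against 3.92, 3.37 and 3.70 in *tdp1WT* embryos, with a difference of the opposite sign, 0.23 (95% confidence interval -0.28 to 0.75). All values of the dimmer probe set lay below the array medians of 4.66 to 4.87. Averaged over both probe sets with equal weight, the *fas* difference was -0.0008. Of the 9 genes, *fas* alone lies on chromosome 17, which also holds *tdp1*, with 212 annotated genes between them, so alleles linked to the *tdp1* mutation and an effect of Tdp1 loss cannot be told apart at this gene.

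*phlda3* encodes a small pleckstrin-homology protein that, in mammals, competes with Akt for membrane lipids and so lowers survival signalling. It read 7.78, 8.34 and 7.91 in *tdp1-/-* embryos, against 7.77, 8.07 and 7.83 in *tdp1WT* embryos. Replicate 2 was the highest array within each genotype. The difference was 0.12 (95% confidence interval -0.32 to 0.56, limma p = 0.535, exact permutation p = 0.6), and it was -0.04 without *tdp1-/-* replicate 2.

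*sesn3* encodes a sestrin, one of the stress-induced proteins that restrain mTORC1 signalling. It read 7.99, 7.64 and 8.05 in *tdp1-/-* embryos, against 8.196, 7.65 and 8.28 in *tdp1WT* embryos. Replicate 2, the high array of *pmaip1* and *phlda3* in *tdp1-/-* embryos, was here the low array of both genotypes. The means of 7.89 ± 0.22 and 8.04 ± 0.34 (SD, n = 3 each) differed by -0.15 (95% confidence interval -0.65 to 0.35, limma p = 0.512, exact permutation p = 0.5).

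**Figure D2:**
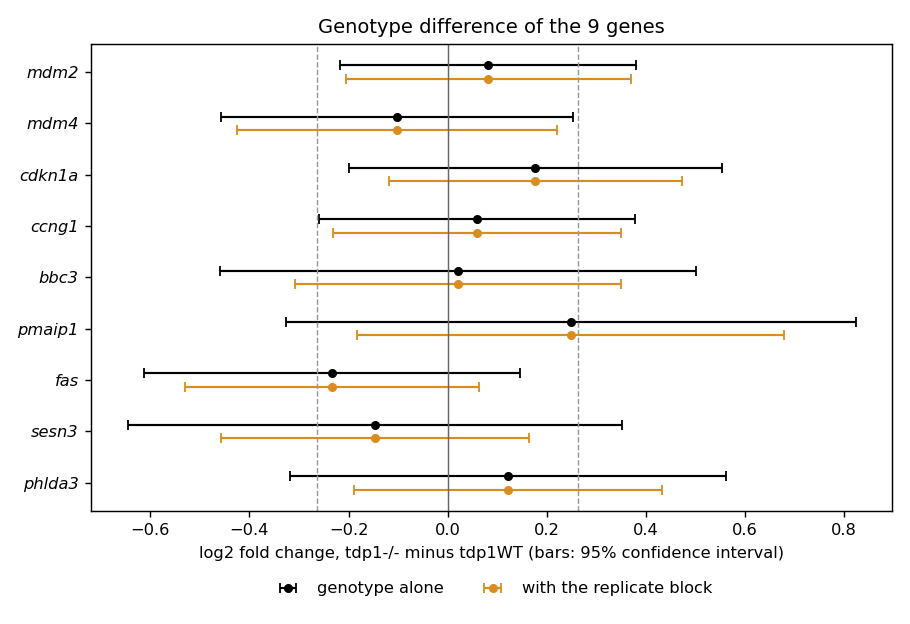
Differences in log2 expression, *tdp1-/-* minus *tdp1WT*, with 95% confidence intervals from limma, for genotype alone (black) and with the experiment as a block (orange). Dashed lines mark a 1.2-fold change either way, and every interval crosses 0 and reaches beyond 1.2-fold on at least 1 side.

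The intervals set how large a difference in RMA values these arrays leave room for. The upper ends reached 1.77-fold higher in *tdp1-/-* embryos for *pmaip1*, 1.48-fold for *phlda3*, 1.47-fold for *cdkn1a* and 1.30-fold for *mdm2*. The lower ends reached 1.56-fold lower for *sesn3* and 1.53-fold lower for *fas*. The standard error of the difference was 0.13 to 0.25 without the block and 0.11 to 0.17 with it, and it was smaller with the block for all 9 genes.

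Same-numbered arrays deviated together to a small degree, so the differences were also read within each number. The labels do not state that these arrays share an experiment, so experiment here means arrays of the same number. *mdm2* was higher in *tdp1-/-* embryos by 0.07, 0.07 and 0.11 in experiments 1, 2 and 3, and *cdkn1a* by 0.09, 0.21 and 0.22. *pmaip1* was higher by 0.04, 0.64 and 0.07, so 1 experiment carried most of its mean difference. *sesn3* differed by -0.20, -0.004 and -0.23, and *fas* by -0.24, -0.15 and -0.31. In all, 5 genes (*mdm2*, *cdkn1a*, *ccng1*, *pmaip1* and *phlda3*) were higher in all 3 experiments, beside 14.4% of the 19260 genes, and 2 genes (*fas* and *sesn3*) were lower in all 3, beside 16.8%. The 7 of 9 genes that kept 1 direction compare with 31.2% of all genes, given as a description because the genes share the same 6 arrays. The count of genes higher in all 3 experiments depended on scaling: it was 5 after a further quantile normalization but 3 when arrays were centred on their medians, which took out *mdm2* and *ccng1*, and under both scalings *mdm4* joined *fas* and *sesn3* as lower in all 3.

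**Figure D3:**
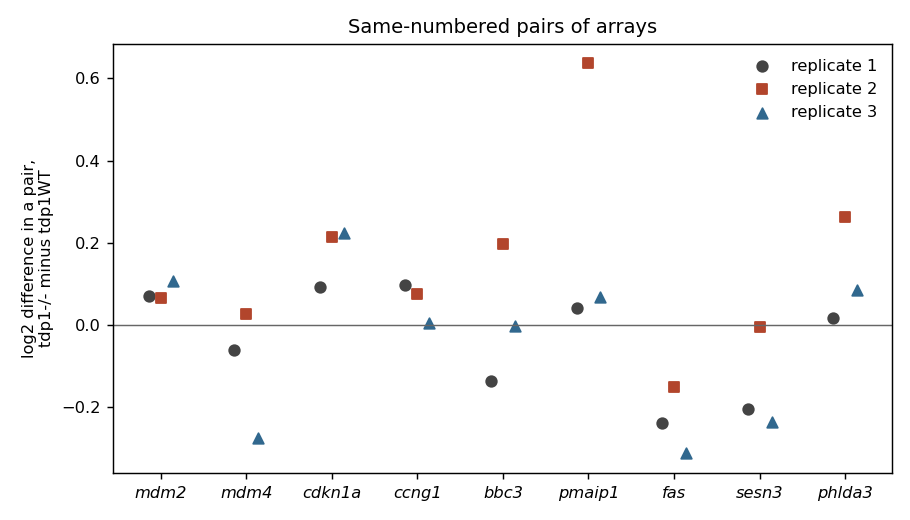
Log2 difference within each of the 3 numbered experiments (*tdp1-/-* minus *tdp1WT*) for each gene. The differences of *mdm2* lie between 0.07 and 0.11, whereas *pmaip1* has 1 experiment at 0.64 and 2 near 0.

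Among the extremes 2 arrays recurred most often. *tdp1-/-* replicate 2 was the highest of the 6 arrays for *cdkn1a*, *ccng1*, *pmaip1* and *phlda3* and the lowest for *sesn3*. The lowest array for *ccng1*, *pmaip1* and *phlda3* was *tdp1WT* replicate 1, which was the highest for *mdm4* and *bbc3*. Less often, *tdp1WT* replicate 3 was the highest for *fas* and *sesn3* and the lowest for *cdkn1a*. Averaged over the 9 genes after centring each gene on its own mean, *tdp1-/-* replicate 2 lay at 0.12, and the other 5 arrays lay between -0.06 and 0.01. Without *tdp1-/-* replicate 2, the median difference of the 9 genes was -0.02 instead of 0.06. Without *tdp1WT* replicate 1 it was 0.06, and no gene was called in either fit.

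Genes whose pattern over the 6 arrays was nearest to that of *mdm2*, by the root mean square difference of centred log2 values among 14698 genes with a mean of at least 5, were *kif3b* (0.021), *tfe3a* (0.022), *pik3cb* (0.024), *gnai3* (0.024) and *srsf6b* (0.025). None of them is a gene of the p53 lists used here, and their own differences were small, from 0.04 to 0.10. The nearest of the other 8 genes was *ccng1*, in position 2619 with a distance of 0.11, and the farthest was *pmaip1*, in position 13941 with a distance of 0.33. Because *mdm2* hardly varied, any gene that hardly varied is near it by this measure.

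Close relatives of *ccng1*, *cdkn1a*, *sesn3* and *phlda3* were read in the same way. The list held no relatives of *mdm2*, *mdm4*, *bbc3*, *pmaip1* or *fas*. Of 9 measured paralogs, such as *ccng2*, the sestrins *sesn1* and *sesn2* and the p21-related inhibitors, 0 were called in either direction. This held without the block, against 1.89% of all genes, and with it, against 4.04%. In a list of 9, a count of 0 is close to these shares. The median difference of the paralogs was 0.07, beside -0.005 over all genes. The smallest p values were those of *sesn1*, with a difference of 0.14 (limma p = 0.314, exact permutation p = 0.2), and the p57-type inhibitor *cdkn1cb*, with -0.13 (limma p = 0.434, exact permutation p = 0.4). *cdkn1cb* read from 3.76 to 4.20, below the array medians of 4.66 to 4.87.

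Of 40 measured further p53 targets, 2 were called higher, against 0.852% of all genes, and 0 were called lower, against 1.04%. They were *ddb2* and *bida*, which both lie on chromosome 18, and whether the 2 calls are independent was not tested. The median difference of the list was 0.02, with 17 of the 40 below 0. *bida* encodes Bid, the BH3-only protein that caspase-8 cleaves to link death receptors to mitochondria. It read 5.20, 5.44 and 5.44 in *tdp1-/-* embryos, against 4.92, 4.92 and 4.91 in *tdp1WT* embryos, without overlap. Its difference of 0.44 ± 0.14 (SE, n = 3 each), or 1.36-fold, had a limma p of 0.0144, an adjusted p of 0.9999 and an exact permutation p of 0.1, the smallest possible here, and it was called in all 14 fits, those without a single array included. The *tdp1WT* values of *bida* were near the array medians of 4.66 to 4.87.

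*ddb2* encodes the subunit that finds ultraviolet lesions for nucleotide excision repair. It read 8.56, 8.58 and 8.68 in *tdp1-/-* embryos, against 7.99, 8.46 and 8.15 in *tdp1WT* embryos. The groups did not overlap, with *tdp1WT* replicate 2 the nearest to the other genotype. The difference was 0.41 ± 0.16 (SE, n = 3 each; limma p = 0.0407, adjusted p = 0.9999, exact permutation p = 0.1), between 0.30 and 0.54 with single arrays left out, and only the fit without *tdp1WT* replicate 2 among those 6 kept the call. The count for the list was therefore 1 without *tdp1WT* replicate 1, *tdp1-/-* replicate 2, *tdp1WT* replicate 3 or *tdp1-/-* replicate 3.

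With the experiment as a block, 3 of the 40 further targets were called higher, against 1.55% of all genes, and 2 lower, against 2.49%. The added genes were *gadd45aa*, a growth arrest gene, higher by 0.48 (adjusted p = 0.767 by limma with the block), and, on the lower side, *gtse1*, a G2 and S phase gene whose human protein restrains p53, at -0.31, and the translesion polymerase gene *polh* at -0.35 (adjusted p = 0.770 with the block for both). *gadd45aa* read 7.58, 8.65 and 8.07 in *tdp1-/-* embryos, against 7.47, 7.92 and 7.46 in *tdp1WT* embryos. As for *cdkn1a* and *pmaip1*, its highest array was *tdp1-/-* replicate 2, without which the difference was 0.21 and was not called. Without *tdp1-/-* replicate 1 the difference was 0.74 and was called, in a fit that called 5004 rows, against 2688 with all arrays.

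Of 32 measured regulators of p53, which modify, degrade or activate it, 0 were called higher, against 0.852% of all genes, and 1 lower, against 1.04%, with a median difference of -0.03. In a list of 32, 1 call is close to that share. The called gene was *hipk1a*, which encodes a kinase of the family that phosphorylates p53. It read 5.75, 5.39 and 5.70 in *tdp1-/-* embryos, against 6.27, 5.87 and 5.99 in *tdp1WT* embryos, without overlap (difference -0.43 ± 0.17, SE, n = 3 each; limma p = 0.0403, adjusted p = 0.9999, exact permutation p = 0.1). The call was lost without *tdp1WT* replicate 1, *tdp1-/-* replicate 2, *tdp1WT* replicate 3 or *tdp1-/-* replicate 3, where the difference lay between -0.32 and -0.47, and the first 3 of these left 0 genes of the list called. The block added *chek1*, the checkpoint kinase downstream of Atr, at -0.31 (adjusted p = 0.770 by limma with the block), which made 2 lower calls, against 2.49% of all genes lower with the block. Without *tdp1-/-* replicate 3 the 2 genes called were *chek1* and *atr* itself. *chek1* read from 4.41 to 5.12, beside array medians of 4.66 to 4.87.

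Among 23 measured genes of the apoptosis machinery 1 was called higher and 0 lower, with or without the block, against 0.852% of all genes higher without the block and 1.55% with it, and the median difference was -0.008. The called gene was *casp3b*, which encodes an executioner caspase. It read 7.12, 7.07 and 7.17 in *tdp1-/-* embryos, against 6.76, 6.60 and 6.60 in *tdp1WT* embryos, every *tdp1-/-* array above every *tdp1WT* array. The difference of 0.46 ± 0.13 (SE, n = 3 each), or 1.38-fold, had a limma p of 0.00939, an adjusted p of 0.9999 and an exact permutation p of 0.1, and the call held in all 14 fits. Without *tdp1-/-* replicate 1 a second gene of the list, *bcl2a*, was called lower at -0.76. That fit called 5004 of all 75212 rows, against 2688 with all arrays.

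The cell cycle genes around the step at which p21 acts, which include cyclins, their kinases, E2F genes, the Rb family and S phase genes, had a median difference of -0.07, and of 22 measured 0 were called higher, against 0.852% of all genes, and 3 lower (*cdk1*, *tyms* and *cdk2*), against 1.04%. *cdk1*, the mitotic kinase, read 4.57, 4.50 and 4.68 in *tdp1-/-* embryos, against 5.00, 4.87 and 5.61 in *tdp1WT* embryos, and lies on chromosome 17 like *tdp1*. Its mean was 1.496-fold lower (difference -0.58 ± 0.21, SE, n = 3 each; limma p = 0.0276, adjusted p = 0.9999, exact permutation p = 0.1). Each *tdp1-/-* value of *cdk1* lay below the median of its array, and array medians ran from 4.66 to 4.87. *tyms*, the thymidylate synthase gene, read 7.14, 7.09 and 7.40 in *tdp1-/-* embryos, against 7.76, 7.42 and 8.07 in *tdp1WT* embryos, with a 1.45-fold lower mean (limma p = 0.0280, exact permutation p = 0.1).

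*cdk2*, the S phase kinase that p21 inhibits, read 6.36, 5.67 and 6.25 in *tdp1-/-* embryos, against 6.43, 6.66 and 6.67 in *tdp1WT* embryos, a difference of -0.49 (limma p = 0.0489, or 0.0630 with the block, which ended the call; exact permutation p = 0.1). The genotypes were without overlap for 5 of the 22 genes, against 7.72% of all genes. These were the 3 called genes, *e2f3* (-0.22) and, in the opposite direction, *ccnd1* (0.16). The 3 calls depended on single arrays. The list had 0 calls without *tdp1-/-* replicate 2 or without *tdp1WT* replicate 3, 1 without *tdp1WT* replicate 1 (*cdk1*) or without *tdp1-/-* replicate 1 (*cdk2*), and 2 (*cdk1* and *tyms*) without *tdp1WT* replicate 2 or *tdp1-/-* replicate 3.

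**Figure D4:**
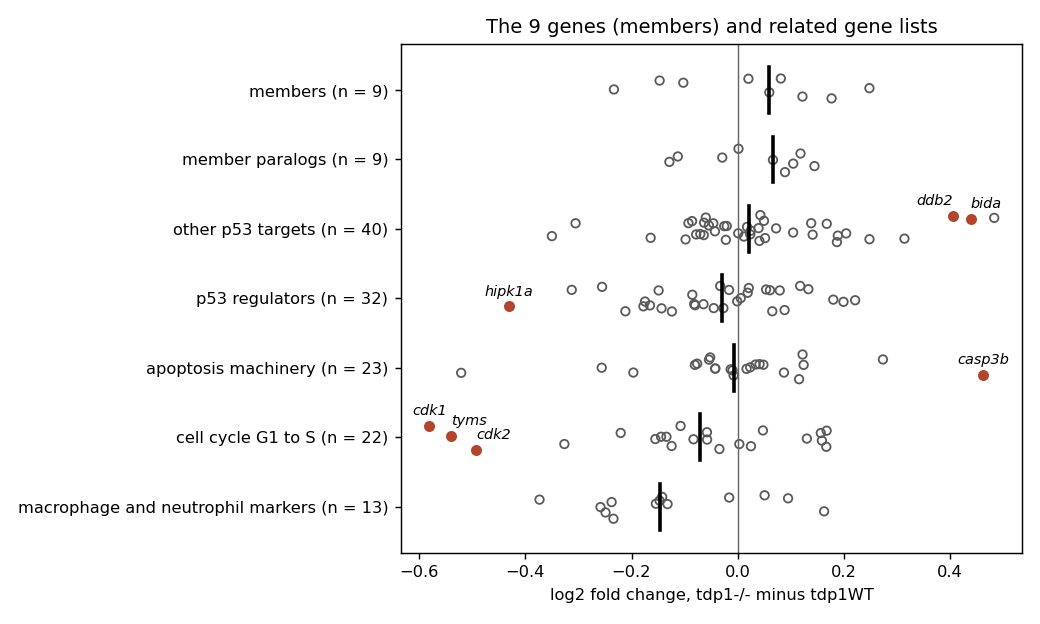
Log2 difference, *tdp1-/-* minus *tdp1WT*, of each measured gene of the 9 (members) and of the related lists, 1 circle a gene, with the list median as a black bar and filled red circles for genes called without the block. The 9 genes lie between -0.23 and 0.25 and hold no called gene, whereas *bida*, *ddb2* and *casp3b* lie above 0.4 and *cdk1*, *tyms*, *cdk2* and *hipk1a* below -0.4.

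Markers of other cells were read beside these lists. The 13 measured macrophage and neutrophil markers had a median difference of -0.15. Of them 0 were called without the block, against 1.89% of all genes, and 0 with it, against 4.04%. In a list of 13, a count of 0 is close to these shares. Below 0 lay 10 of the 13 (76.9%, against 51.4% of all genes). The other 3, *mpx* (0.16), *mmp9* (0.095) and *csf1ra* (0.05), lay above 0, and *mpx* was higher in all 3 experiments. The mean of the list on an array lay between 5.59 and 5.72 in *tdp1-/-* embryos, against 5.67 and 5.88 in *tdp1WT* embryos. The smallest p values were those of *spi1a* (-0.23, limma p = 0.125) and *mpeg1.2* (-0.25, limma p = 0.137), each with an exact permutation p of 0.1. *spi1a* read from 4.36 to 4.72, beside array medians of 4.66 to 4.87. Without *tdp1-/-* replicate 2 there were 2 calls, *mfap4.1* and *spi1b*, both lower. Of the 12 tissue markers, 11 lay below 0 (91.7%, against 51.4% of all genes). Among them 2 were called lower, against 1.04% of all genes, the skin keratin *krt5* at -0.50 and the globin *hbae1.1* at -0.43 (exact permutation p = 0.1 for each), and the mean of the list on an array lay between 9.17 and 9.37 in *tdp1-/-* embryos, against 9.41 and 9.45 in *tdp1WT* embryos. With the block the glial marker *gfap* was also called lower, at -0.45, which made 3 lower calls, against 2.49% of all genes. The part of tissue make-up in the values of the 9 genes and of the related lists was not tested.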

How the data were processed

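Total RNA of whole embryos was labelled by the authors with the Affymetrix WT plus protocol, and the arrays were processed with RMA in the Transcriptome Analysis Console. The deposited values are therefore log2 signals, already background-corrected, quantile-normalized and summarized to 1 value for each transcript cluster. The genome build is not given in the sources used here. Of 75212 rows, 20806 carried 1 gene symbol in the platform annotation, and 20323 of these were matched by Entrez ID to RefSeq names (assembly GRCz12tu, used only for names, chromosomes and gene order), which gave 19260 genes. A gene with several rows was represented by the row with the highest mean.

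With R 4.3.3 and limma 3.58.1, *tdp1-/-* minus *tdp1WT* was fitted over all rows with genotype alone (lmFit and eBayes), with Benjamini-Hochberg adjustment over all rows. A call needed a fold change above 1.2 with p below 0.05 before adjustment. The fit was tested on simulated data. Samples were grouped by the labels. The labels do not state that same-numbered arrays come from 1 experiment. Such arrays deviated together from their genotype means (r = 0.203, 0.216 and 0.290 for replicates 1, 2 and 3). For arrays of unlike number r ran from -0.285 to 0.083. These values are small and the pairing remains an assumption. The fit with the replicate as a block was run beside the fit with genotype alone. Other alternatives were a further quantile normalization, median centring, array weights, an intensity trend in eBayes, leaving out dim or repeated rows, and leaving out each array. The number of arrays, 3 a genotype, limits the precision.

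The 9 genes and the related lists were chosen with earlier results of these data known. All 9 genes are named, with the genes of each list called without or with the block, or the 2 with the smallest p where none was, and the 5 genes nearest to *mdm2*. Genes named for a call that appeared when 1 array was left out, and tissue markers, were chosen after their values were seen. Symbols matched 9 of 10 listed paralogs, 40 of 49 further targets, 32 of 38 regulators, 23 of 30 apoptosis genes, 22 of 25 cell cycle genes, 13 of 14 macrophage and neutrophil markers and 12 of 14 tissue markers, and *baxa* is in 2 of the lists.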

Additional observations from a re-analysis of the deposited data

How the results depend on the processing

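None of the 9 genes was called in any of the 14 fits, and the replicate block changed no call among them (median difference 0.06 with it). The sign held for 7 of the 9 in every fit. *bbc3* turned to -0.00132 with median centring and -0.068 with array weights, and ran from -0.12 to 0.17 with single arrays left out, as *phlda3* ran from -0.0399 to 0.24. The median of the 9 ranged from -0.0218 to 0.0753 with single arrays left out. With the replicate block, 5 further p53 targets were called (2 without it), 2 p53 regulators (1 without it) and 4830 rows (2688 without it). Median centring left 1 further target called. Leaving out rows with a mean under 4 left 1630 of the remaining 45854 rows called, against 2688 of 75212 with all rows kept. With single arrays left out, calls ranged from 1 to 3 for further targets, 0 to 2 for regulators, 1 to 2 for the apoptosis machinery, 0 to 2 for the cell cycle list, 0 to 2 for macrophage and neutrophil markers and 1881 to 5004 for all rows, the last without *tdp1-/-* replicate 1. At an adjusted p under 0.05 limma called 0 rows without or with the block, 7 after a further quantile normalization, 8 with median centring and 9 with array weights. Rows called higher and lower were 1718 and 970 as deposited, 1566 and 1548 after quantile normalization and 1669 and 1277 with median centring. The counts of genes in 1 direction in all 3 experiments under other scalings were chosen after seeing the data. The causes were not tested.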
